A study of Nasonia vitripennis with 6 samples.

Results

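The genes Nv-tailless (Nasvi2EG005579), Nv-toy (Nasvi2EG015857) and Nv-homeobrain (Nasvi2EG007407) are homologs of Drosophila genes that pattern the head of the embryo. They were chosen by name and gene identifier, and they are 3 of the 20033 loci in the deposited table. All 3 were among the 10241 loci with enough fragments to be tested. RNA was sequenced from pools of embryos of the parasitoid wasp Nasonia vitripennis, collected from 4 to 7 h after egg lay, a period that the labels call late blastoderm. In parental RNA interference (pRNAi) double-stranded RNA is injected into female pupae, and transcripts are measured in the embryos they later lay. The Toll pRNAi group held 2 libraries, aimed at TollA, the receptor of the ventral signal, with 2 dsRNAs that do not overlap. The BMP pRNAi group held 2 libraries, 1 aimed at the ligand gene dpp and 1 at the ligand gene gbb, so that a difference between these ligands had no replicate. The control group held 2 libraries of embryos from mothers injected with water. Each library was a pool of whole embryos, so that fewer cells with a transcript and less transcript per cell cannot be told apart. The study selected these genes with these libraries in view, and a p-value given for them is therefore not independent evidence of the direction.

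In the fly, Toll signaling is active on the ventral side and directs the fates of mesoderm and ventral ectoderm, whereas BMP signaling is active on the dorsal side and directs the dorsal ectoderm and the extraembryonic membrane. The study describes Nasonia as different from the fly. There the dorsoventral pattern relies heavily on BMP signaling, and Toll has a limited, ventral part. In Drosophila, tailless encodes an orphan nuclear receptor that acts at both poles of the blastoderm and in the brain anlage. The gene toy (twin of eyeless) encodes a Pax6 transcription factor near the top of the eye network, and homeobrain encodes a paired-like homeodomain protein of the anterior brain. In Nasonia the study finds tailless, toy and homeobrain expressed at the poles of the embryo. Of the polar genes it adds to those already known, homeobrain among them, it reports a similar domain in Drosophila for toy only. In assembly 1.0 with annotation 2.0 the locus of tailless lies on scaffold 8, from 3564030 to 3573340. The locus of toy lies on scaffold 55, from 245127 to 272724, and that of homeobrain on scaffold 13, from 628021 to 634999. Each locus was paired with 1 gene identifier, and 0 of the other loci paired with an identifier overlapped any of them. Only 1799 of the 20033 loci were so paired, and an overlap with the rest was not checked.

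The libraries held between 22754267 and 30590172 fragments. TollA, the target of the Toll dsRNA, had 4.92 and 1.23 FPKM (fragments per transcript length and library size) in the Toll pRNAi libraries, against 101 and 128 FPKM in the water libraries. The transcript of dpp had 7.03 FPKM in the dpp library and 12.7 FPKM in the gbb library, against 18.1 and 17.0 FPKM in the water libraries. The log2 fold change of dpp between BMP pRNAi and water was -0.66 ± 0.17 (SE, edgeR adjusted p = 0.057). gbb was not analysed here. The water libraries carry other numbers in their titles than the knockdown libraries, and a batch that such a number might mark cannot be told apart from the injection of dsRNA in any comparison with water.

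After BMP pRNAi all 3 genes fell. The level of tailless was 3.74 FPKM in the dpp library and 2.29 FPKM in the gbb library, against 23.1 and 24.7 FPKM in the water libraries. Both BMP pRNAi libraries thus lay far below both water libraries. The log2 fold change in fragments was -2.98 ± 0.21 (SE, edgeR adjusted p = 0.00023), or 7.91-fold lower. The level of toy was 0.404 FPKM in the dpp library and 0.399 FPKM in the gbb library, against 4.34 and 3.82 FPKM in the water libraries. Its log2 fold change in fragments was -1.96 ± 0.11 (SE, edgeR adjusted p = 8.3e-05). homeobrain was the least affected, with 26.0 FPKM in the dpp library and 22.2 FPKM in the gbb library, against 61.6 and 58.9 FPKM in the water libraries. Its log2 fold change was -0.98 ± 0.09 (SE, edgeR adjusted p = 0.00074), or 1.98-fold lower. Of all loci tested 5.55% passed the threshold in this comparison and 3.49% passed it as lower, whereas 3 of these 3 genes did. Among the 10241 loci ordered by log2 fold change, with the most reduced first, tailless was at place 15, toy at 48 and homeobrain at 307.

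**Figure D1:**
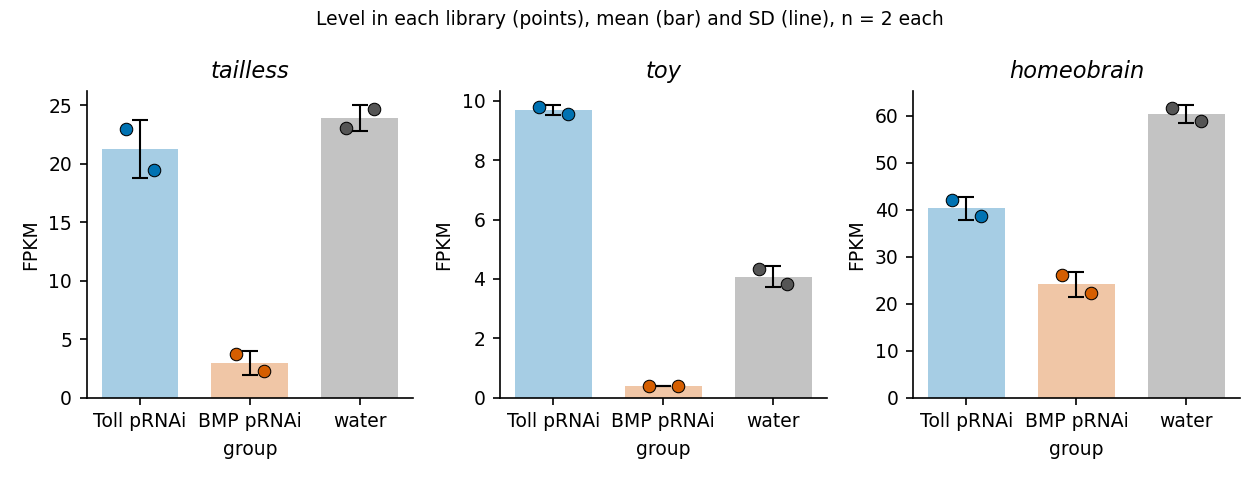
FPKM of tailless, toy and homeobrain in each library (points), with the mean (bar) and SD (line) of the 2 libraries in the Toll pRNAi, BMP pRNAi and water groups. The BMP pRNAi libraries are lowest in every panel, and toy is higher in the Toll pRNAi libraries (9.80 and 9.56 FPKM) than in the water libraries (4.34 and 3.82 FPKM).

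After Toll pRNAi the 3 genes differed from one another. toy rose, with 9.80 and 9.56 FPKM in the Toll pRNAi libraries, against 4.34 and 3.82 FPKM in the water libraries. The log2 fold change in fragments was 1.35 ± 0.10 (SE, edgeR adjusted p = 0.00066), or 2.54-fold higher, and the gene was at place 46 from the most increased of 10241 loci. The level of tailless was 23.0 and 19.5 FPKM in the Toll pRNAi libraries, against 23.1 and 24.7 FPKM in the water libraries. The nearest libraries of these groups were nearly equal, and the log2 fold change of -0.18 ± 0.18 (SE, edgeR adjusted p = 0.59) did not pass the threshold. homeobrain was lower, with 42.0 and 38.6 FPKM in the Toll pRNAi libraries, against 61.6 and 58.9 FPKM in the water libraries. Its log2 fold change was -0.46 ± 0.08 (SE, edgeR adjusted p = 0.031). Of all loci tested 3.62% passed the threshold in this comparison, 2.60% as higher and 1.03% as lower, against 2 of these 3 genes, 1 in each direction. The call for homeobrain was lost when any 1 of the Toll pRNAi or water libraries was left out, with edgeR adjusted p of 0.29 without library TollA2610, 0.24 without library TollA1611, 0.12 without library h2o1704 and 0.20 without library h2o805. It was also lost on the FPKM scale, where limma gave an adjusted p between 0.071 and 0.17 in its 3 forms.

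The fold changes between the knockdowns set the Toll pRNAi libraries directly against the BMP pRNAi libraries, whereas the SE and p come from a spread estimated with the water libraries as well. With the water libraries left out of the fit, each of the 3 genes stayed past the threshold. All 3 genes were higher after Toll pRNAi than after BMP pRNAi. For toy, 9.80 and 9.56 FPKM in the Toll pRNAi libraries stood against 0.404 and 0.399 FPKM in the BMP pRNAi libraries. Its log2 fold change was 3.31 ± 0.11 (SE, edgeR adjusted p = 2.4e-06), place 18 from the highest of all loci. For tailless it was 2.80 ± 0.21 (SE, edgeR adjusted p = 0.00014), place 29 from the highest, and for homeobrain 0.52 ± 0.09 (SE, edgeR adjusted p = 0.010). In this comparison 6.89% of the loci tested passed the threshold and 5.83% passed it as higher after Toll pRNAi. The homeobrain call was lost without library TollA2610 (edgeR adjusted p = 0.12) and without library TollA1611 (edgeR adjusted p = 0.088).

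In FPKM, each gene had libraries that did not overlap between any of the 3 pairs of groups, tailless between Toll pRNAi and water included, by the narrow margin given above. This was common among all loci tested. The libraries did not overlap for 57.8% of the loci between Toll pRNAi and water, for 59.1% between BMP pRNAi and water and for 58.3% between Toll pRNAi and BMP pRNAi. The order of the groups for toy was Toll pRNAi, then water, then BMP pRNAi, and each neighbouring pair passed the threshold. For homeobrain the order was water, then Toll pRNAi, then BMP pRNAi, of which the first pair rested on the call that was lost without single libraries. For tailless, Toll pRNAi and water were neighbours that did not differ beyond their spread, and BMP pRNAi was below both. In FPKM, homeobrain was the highest of the 3 genes in all 6 libraries and toy the lowest.

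The genes also differed in how far the libraries of a group lay apart. In CPM (counts scaled to library size), the log2 gap between the dpp and gbb libraries was 0.73 for tailless, with the gbb library lower, and it was 0.08 for toy and 0.09 for homeobrain. The SD of this gap over well-covered loci was 0.27 in the BMP pRNAi group. The lowest counts were 179 fragments of tailless in the gbb library and 141 of toy in the dpp library, for which the counting error was 7.47% and 8.42%. The gap between the Toll pRNAi libraries was 0.29 for tailless and 0.11 for toy, and between the water libraries 0.02 for tailless and 0.08 for toy. The log2 fold change of tailless between BMP pRNAi and water was -3.38 with the gbb library alone and -2.66 with the dpp library alone. Whether dpp and gbb pRNAi differ in their effect on tailless was not tested, since each ligand had 1 library.

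The size of the fall of toy after BMP pRNAi depended on the scale. The table gives for each locus a number of fragments and an FPKM, which also divides by the length that the authors' software assigned to the transcripts of the locus. For toy the BMP pRNAi libraries held 141 and 145 fragments, against 432 and 507 in the water libraries. As a ratio of mean FPKM the log2 change was -3.35, or 10.2-fold lower, whereas the fragments gave a 3.90-fold lower level. For tailless the ratio of the mean FPKM was -2.98, close to that of fragments, and for homeobrain it was -1.32. toy was therefore reduced less than tailless on the scale of fragments and more than tailless as a ratio of mean FPKM. The order in FPKM depended on the form used. With limma on log2(FPKM + 1) toy changed by -1.86 and tailless by -2.65. With limma on log2(FPKM + 0.1) the change of toy was -3.06 (limma adjusted p = 0.00096), and over all alternatives the adjusted p of toy in this comparison ran up to 0.036. Its direction and call held on both scales.

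**Figure D2:**
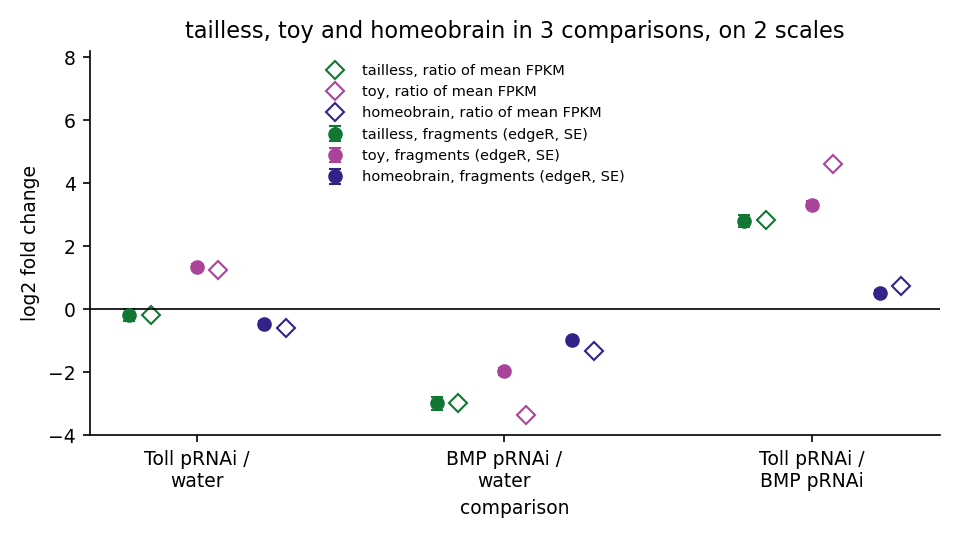
Log2 fold change of tailless, toy and homeobrain for Toll pRNAi over water, BMP pRNAi over water and Toll pRNAi over BMP pRNAi, in fragments (filled, edgeR, line = SE) and as the ratio of mean FPKM (open). For toy after BMP pRNAi the scales give -1.96 and -3.35, whereas for tailless both give -2.98.

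The FPKM given per fragment, relative to the median of each library, showed where the scales part. For toy it was lower in the BMP pRNAi libraries than in the water libraries by -1.41 on the log2 scale, and 13 of 10238 loci were below this value. The 2 BMP pRNAi libraries gave -1.46 and -1.36 relative to the mean of water, whereas the Toll pRNAi libraries gave -0.01 and -0.14. For homeobrain the shift was -0.37, lower than for all but 1.85% of the loci, and for tailless it was -0.03. A shift beyond 0.1 in either direction occurred in 13.5% of the loci. Values per transcript were not analysed here, and whether other transcripts of the toy locus were used after BMP pRNAi was not tested.

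**Figure D3:**
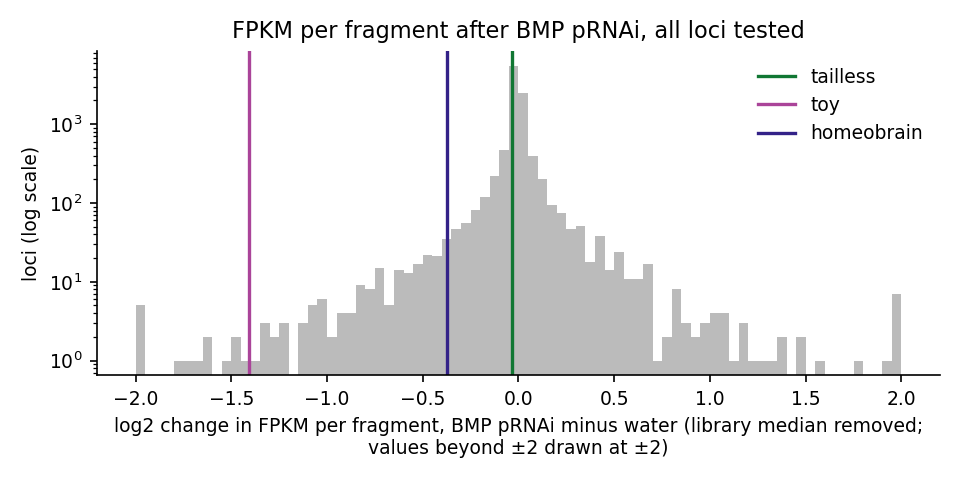
Distribution over 10238 loci of the log2 change in FPKM per fragment, BMP pRNAi minus water, after removal of each library's median, with the count of loci on a log axis and lines for tailless, toy and homeobrain. toy stands in the lower tail at -1.41, homeobrain at -0.37 and tailless near 0 at -0.03.

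Ratios of 2 genes within a library do not depend on the scaling between libraries. Comparing groups, only the change of a ratio is read for fragments, since these are not divided by length. In FPKM the ratio of toy to homeobrain was 0.233 and 0.248 in the Toll pRNAi libraries, 0.0155 and 0.0180 in the BMP pRNAi libraries and 0.0704 and 0.0649 in the water libraries. toy thus gained on homeobrain after Toll pRNAi and lost on it after BMP pRNAi, and in fragments the log2 differences from water were 1.81 and -0.98. The ratio of tailless to homeobrain was 0.547 and 0.505 in the Toll pRNAi libraries, 0.144 and 0.103 in the BMP pRNAi libraries and 0.375 and 0.419 in the water libraries. The ratio of toy to tailless was 0.426 and 0.491 in the Toll pRNAi libraries, 0.108 and 0.174 in the BMP pRNAi libraries and 0.188 and 0.155 in the water libraries. Its BMP pRNAi libraries overlapped the water libraries in FPKM, with a log2 difference of -0.32, but in fragments the difference was 1.06, in the other direction. With 2 libraries against 2 the smallest two-sided p of an exact permutation test is 0.333, and the ratios were not tested.

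**Figure D4:**
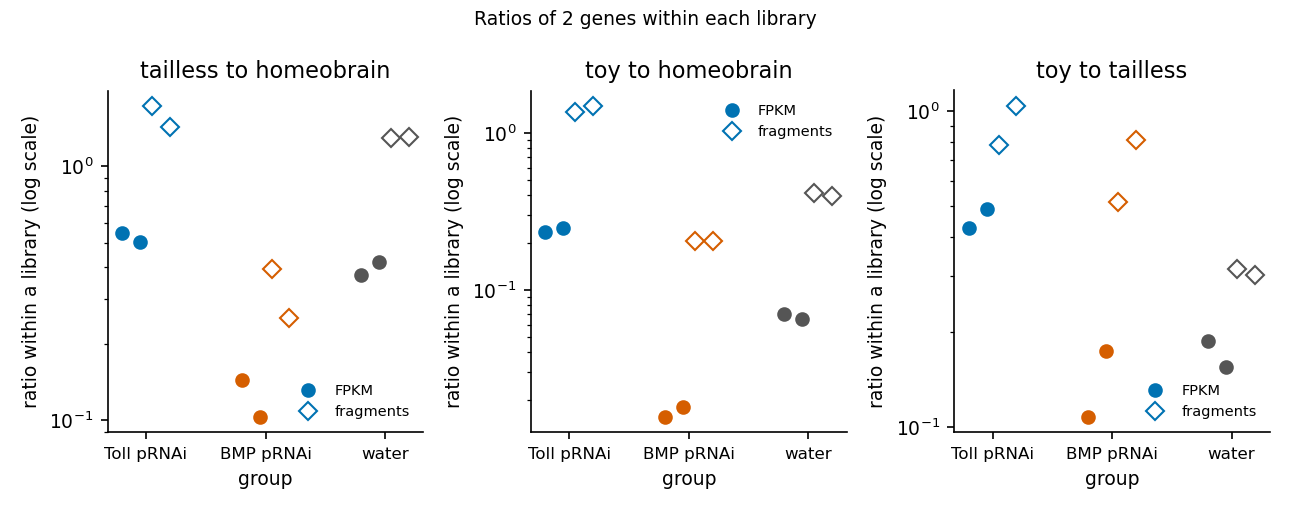
Ratio of tailless to homeobrain, toy to homeobrain and toy to tailless within each library, on a log axis, in FPKM (filled) and in fragments (open), for the Toll pRNAi, BMP pRNAi and water groups. After BMP pRNAi the ratio of toy to tailless overlaps that of water in FPKM and lies above it in fragments.

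The study places the 3 genes in a class of 10 genes expressed along the anteroposterior axis. After BMP pRNAi 10 of 10 were called lower than in water, against 3.49% of all loci tested. Their median log2 fold change was -1.16, against a median of 0.01 over all loci tested. Between Toll pRNAi and BMP pRNAi 10 of 10 were called higher after Toll pRNAi, against 5.83% of all loci tested. Their median was 1.36, against 0.00 over all loci. The study selected this class on these libraries, so these counts are not independent evidence of the direction. Among the other 7 genes of the class the change after BMP pRNAi ran between -1.92 for the orthodenticle gene Nasvi2EG014291, a head gap gene in Drosophila, and -0.94 for the ankyrin gene Nasvi2EG000245. The other orthodenticle gene, Nasvi2EG014289, had 34.5 ± 1.81 FPKM after BMP pRNAi and 74.7 ± 1.51 FPKM after water injection (SD, n = 2 each). tailless had the largest reduction of the class in fragments, toy and the orthodenticle gene Nasvi2EG014291 differed by less than their SE, and homeobrain was next to the smallest.

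In the comparison of Toll pRNAi with water, toy and homeobrain were the 2 genes of the class that passed the threshold. Of all loci tested 3.62% passed it. Among the 7 genes other than tailless, toy and homeobrain, 0 passed the threshold against water by edgeR. DESeq2 called 0 of these 7, against 789 of the 10241 loci tested. An unadjusted edgeR p under 0.05 was found for 2 of the 7, and its share over all loci is not given here. The median log2 fold change of these 7 genes was 0.25, against 0.02 over all loci tested. Values ran up to 0.45 ± 0.16 (SE, edgeR adjusted p = 0.15) for the ankyrin gene Nasvi2EG000245, and toy at 1.35 was above all of them.

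**Figure D5:**
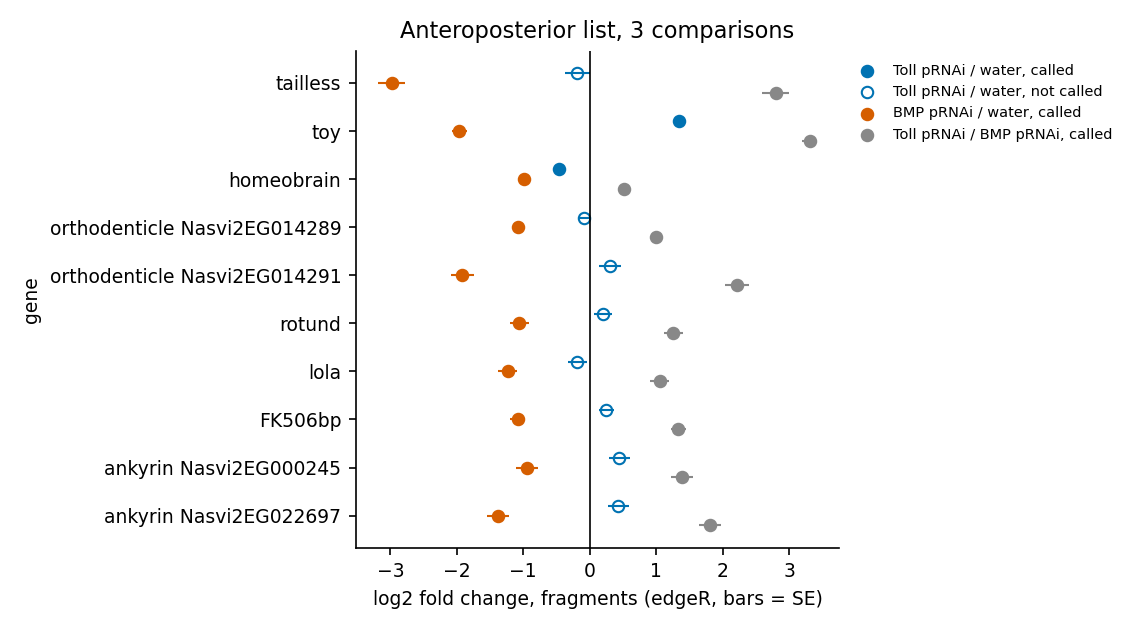
Log2 fold change in fragments (edgeR, line = SE) of the 10 genes of the anteroposterior class for Toll pRNAi over water, BMP pRNAi over water and Toll pRNAi over BMP pRNAi. All 10 are lower after BMP pRNAi than in water, and toy (1.35) and homeobrain (-0.46) are the filled points for Toll pRNAi over water.

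Among the head and eye regulators known from Drosophila, the genes tailless, toy, homeobrain, both orthodenticle genes and optix were measured. After BMP pRNAi 5 of 6 fell in the edgeR test, with a median log2 fold change of -1.50, against 0.01 over all loci tested. Of all loci tested 3.49% were called lower. Apart from tailless, toy and homeobrain, 2 of 3 were called lower. The study found these genes with these libraries, so the count is not independent evidence of the direction. optix, a sine oculis family gene of the eye and head, was the exception. In Nasonia the study finds optix in a ventral stripe, and optix is also counted below among the ventral mesoderm transcription factors. It had 9.38 ± 0.03 FPKM after Toll pRNAi, 30.5 ± 5.46 FPKM after BMP pRNAi and 19.6 ± 0.14 FPKM after water injection (SD, n = 2 each). Between Toll pRNAi and BMP pRNAi its log2 fold change was -1.28 ± 0.18 (SE, edgeR adjusted p = 0.0045), opposite to the other 5 genes. Its comparisons with water did not pass the threshold in edgeR (edgeR adjusted p = 0.078 for Toll pRNAi and 0.064 for BMP pRNAi). DESeq2 called optix in both, where it called 789 loci for Toll pRNAi and 1351 for BMP pRNAi, of 10241 tested.

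The markers of other fates moved in the same libraries. Of 7 serosal transcription factors measured, 7 fell after BMP pRNAi, against 3.49% of all loci tested called lower. Their median log2 fold change was -1.45. zen, which specifies the extraembryonic membrane in insects, changed by -2.67 ± 0.13 (SE, edgeR adjusted p = 3.1e-05). The summed level of these 7 genes was between 207.0 and 225.5 FPKM in the Toll pRNAi libraries, between 52.2 and 56.1 FPKM in the BMP pRNAi libraries and between 175.3 and 179.1 FPKM in the water libraries. After Toll pRNAi 1 of 7 passed the threshold as higher, against 2.60% of all loci tested. This was dorsocross, at 0.52 ± 0.10 (SE, edgeR adjusted p = 0.033), a smaller log2 change than the 1.35 of toy. The 7 changes ran between 0.14 and 0.52, with a median of 0.27, against 0.02 over all loci tested. DESeq2 called 2 of the 7, against 789 of the 10241 loci tested. An unadjusted edgeR p under 0.05 was found for 4 of the 7, and its share over all loci is not given here. Of 5 ventral mesoderm transcription factors, twist and snail among them, 4 fell after Toll pRNAi in the edgeR test. Of all loci tested 1.03% were called lower there. After BMP pRNAi 4 of the 5 rose, against 5.55% of all loci tested called in either direction. The summed level of these 5 genes was between 20.4 and 24.3 FPKM in the Toll pRNAi libraries, between 147.1 and 176.2 FPKM in the BMP pRNAi libraries and between 82.3 and 85.4 FPKM in the water libraries. No gene of either list was at 0 in a library. The part of such shifts in cell fate in the changes of tailless, toy and homeobrain was not tested. The study chose both lists on these libraries as well.

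The 3 genes were not the nearest of one another in pattern. Likeness was measured as the root mean square difference, over the 6 libraries, of log2 CPM set to the mean of water, among 501 loci that were tested and paired with a gene identifier. For tailless the nearest were Nasvi2EG015087 (0.17, Pearson r = 0.99), zen (0.32, r = 0.99) and Nasvi2EG000051 (0.34, r = 0.98). tailless lay at 1.10 from toy and 1.20 from homeobrain. For toy the nearest were Nasvi2EG013224 (0.42, r = 0.97), Nasvi2EG013777 (0.50, r = 0.99) and Nasvi2EG016888 (0.51, r = 0.99), and all 3 had a smaller log2 fold change after Toll pRNAi than toy, between 0.58 and 0.69. For homeobrain the nearest were Nasvi2EG001079 (0.15, r = 0.95), Nasvi2EG017764 (0.15, r = 0.95) and Nasvi2EG015706 (0.18, r = 0.95). Several of these loci were at a low level. In water Nasvi2EG001079 was at a mean of 0.163 FPKM and Nasvi2EG013224 at 0.618 FPKM. After BMP pRNAi Nasvi2EG001079 was at 0.0383 FPKM, Nasvi2EG013224 at 0.122 FPKM, Nasvi2EG015087 at 0.163 FPKM and Nasvi2EG013777 at 0.439 FPKM. The 6 points of each correlation come from 3 groups, and r is given as a description.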

How the data were processed

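Poly-A RNA of 6 pools of embryos was sequenced by the authors, 2 in each group, and per the labels the reads were processed with TopHat2 2.0.3 and Cufflinks 2.0.2. The study states that Cuffdiff was run on assembly 1.0 with annotation 2.0. The deposited table holds expected counts of fragments per locus, not scaled between libraries and with fragments of several possible origins divided, and FPKM computed by the authors' run. Of the nonzero expected counts 76.4% were whole within 0.001. Replicates, numbered within a condition, were matched to libraries by the order in the authors' Cuffdiff command. Gene identifiers came from part of a supplementary table, which paired 1799 loci.

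After rounding, the expected counts were tested in edgeR 4.0.16 (quasi-likelihood, TMM, default filter on low counts, 1 mean per group, all 6 libraries) in R 4.3.3. Adjusted p is by Benjamini-Hochberg over 10241 loci, with a threshold of 0.05. The SE is the absolute log2 fold change over the square root of F. The biological coefficient of variation was 0.0953. The same fit was also run on simulated counts, drawn with the same spread for every locus, and its outcome is not given here. The study describes the Toll pRNAi libraries as separate experiments, the water pools as independent, and dpp and gbb pRNAi as replicates of BMP knockdown. Counting errors cover counting only. Alternatives were DESeq2 1.42.0, RLE factors, no filter, only the groups compared, limma 3.58.1 on log2(FPKM + 1) with and without the filter and on log2(FPKM + 0.1), a block by title number and leaving out each library. The genes named were the 3 genes, the genes of the lists, TollA and dpp, and for each of the 3 genes the 3 loci nearest in pattern. The genes and lists were chosen with earlier results of these data known. orb and ap-1 were not analysed here.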

Additional observations from a re-analysis of the deposited data

How the results depend on the processing

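The 9 results for tailless, toy and homeobrain were computed under 120 alternatives in all. None reversed, 106 stayed on their side of the threshold and 14 lost their call. Without a filter, limma on log2(FPKM + 1) lost toy between Toll pRNAi and water (1.07, limma adjusted p = 0.054), tailless (-2.65, limma adjusted p = 0.081) and homeobrain (-1.29, limma adjusted p = 0.081) after BMP pRNAi against water, and tailless (2.49, limma adjusted p = 0.071) and homeobrain (0.72, limma adjusted p = 0.14) between Toll pRNAi and BMP pRNAi. homeobrain between Toll pRNAi and water lost its call with limma on log2(FPKM + 1) (-0.57 with the filter and -0.57 without), with limma on log2(FPKM + 0.1) (-0.58), and without single libraries, where its change ran between -0.49 and -0.45. Without single libraries homeobrain between Toll pRNAi and BMP pRNAi ran between 0.45 and 0.54. In fragments in place of FPKM, the ratio of toy to tailless after BMP pRNAi reversed to 1.06.

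The number of loci called, and with it the percentage given beside the genes, depended far more on the setting. Against 371 loci between Toll pRNAi and water, DESeq2 called 789, no filter 1238, only the 2 groups 1343, limma 27 with log2(FPKM + 1), 22 with log2(FPKM + 0.1) and 23 without a filter, and leaving out 1 library gave between 22 and 1358. Against 568 between BMP pRNAi and water, these were 1351, 2053, 162, 281, 113 and 16, and between 90 and 2628 without 1 library. Against 706 between Toll pRNAi and BMP pRNAi, no filter gave 1641, limma 361, 267 and 141, and leaving out 1 library between 217 and 2045. These counts moved by more than 1.5 times without each single library, except the third without the dpp library. The cause was not tested.

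The Toll pRNAi and BMP pRNAi libraries share title numbers, and what a shared number marks is not known here. Deviations of same-numbered libraries correlated at 0.127 over 7276 loci. With the replicate block 1369 loci were called between these groups, against 474 in the same libraries without it. The log2 fold change with the block was 2.81 for tailless, 3.30 for toy and 0.51 for homeobrain, each still past the threshold. In the class of 10 genes, the number called between BMP pRNAi and water was 1 in limma without a filter, and between Toll pRNAi and BMP pRNAi it was 3. With 2 libraries a group, the spread rested on few degrees of freedom.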
